A study of Mus musculus with 5375 samples.

Results

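The comparison covers the lung endothelial cells (ECs) that the authors kept for analysis at 2 time points: 941 cells collected 1.5 days after tumour cells were injected and 839 cells from uninjected control lungs (day 0), of 2479 kept ECs in the whole series. Membership followed the deposited table of filtered cells, in which each cell carries its time point and its number among the 1152 cells sorted at that time point, and each cell was assigned to its mouse through the deposited cell annotation. All animals were female wild-type BALB/c mice, the strain from which the 4T1 mammary carcinoma line is derived. Day 0 held 4 animals (m1 to m4) with no tumour cells. Day 1.5 held 3 animals (m5 to m7) that had received 4T1-GFP cells, a green fluorescent line of 4T1, by repeated tail vein injection. The tumour cells thus reached the lung directly through the blood, with no primary tumour. For another model the paper used NOD-SCID in place of BALB/c mice, because GFP can be immunogenic. ECs were taken from whole digested lungs by flow sorting for CD31 after exclusion of cells positive for CD45, PDPN, LYVE1 or TER119, so they are a sample of the entire lung vasculature and not of vessels touching a tumour cell. Single cells were sequenced with SMART-Seq2, a plate method that reads full-length transcripts without molecular identifiers. Day 0 animals m1 and m2 were sorted together with m5 to m7 on day 1.5, while m3 and m4 were sorted on day 3.5 with a later group of animals, and no sequencing lane held cells of both days, so that day and lane cannot be told apart. The day 1.5 animals were also those from which intravascular and extravascular tumour cells were sorted, for which a labelled antibody to the MHC class I molecule H-2Kd is given intravenously shortly before collection. Whether day 0 animals received it is not given in the sources used here, so day and antibody cannot be told apart either.

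ECs line every blood vessel, and the lung holds the densest capillary bed of the body. Its capillaries combine general capillary cells (gCaps), which maintain the bed and can divide, with aerocytes (aCaps), which are specialised for gas exchange, and both are fed and drained by large-vessel ECs. ECs sit on a basement membrane of collagen IV, laminin and nidogen that they largely build themselves, and when stimulated by cytokines they switch on adhesion molecules, chemokines and secreted acute-phase factors.

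The kept cells numbered 180 to 226 per animal on day 0 and 293 to 335 on day 1.5, with 75579647 to 95829816 reads assigned to genes per animal on day 0 and 85523321 to 129503801 on day 1.5. The median kept cell held 2262 ± 237 detected genes on day 0 and 2550 ± 439 on day 1.5 (mean ± SD over animals), with overlapping animals (two-sided exact permutation test over 35 arrangements, p = 0.314, adjusted p = 0.495; the smallest p the design allows is 0.0286). The difference of 288 genes was 76.8 without m7 and 515 without m6. Over all sorted cells, before the authors' filter, the medians were 1924 ± 109 and 2519 ± 434 detected genes, and every day 1.5 animal lay above every control (exact permutation p = 0.0286, adjusted p = 0.0857). The part of the number of detected genes in other results was not tested, beyond the thinning and centring given with the shares of cells. Mitochondrial reads made up 1.91% ± 0.151 and 2.04% ± 0.282 of all reads (exact permutation p = 0.371). The authors kept 72.8% ± 7.23 of sorted day 0 cells and 81.7% ± 5.47 of sorted day 1.5 cells (exact permutation p = 0.171).

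Both days carried the markers of ECs. All 20 genes of an endothelial identity list were read in every animal, and their summed level was 27249 to 35351 counts-per-million (CPM) in the day 0 animals and 20074 to 27685 CPM in the day 1.5 animals, with the lower end set by m6. Pecam1, which encodes CD31, the protein used to sort the cells, was read in 99.5% ± 0.368 of cells on day 0 and 100% ± 0 on day 1.5. Its level was 1948, 1719, 1638 and 1891 CPM on day 0 and 1366, 1454 and 1609 CPM on day 1.5. All 3 day 1.5 animals lay below the 4 day 0 animals, by -0.29 ± 0.13 on the log2 scale (SE, edgeR adjusted p = 0.611). Cdh5, encoding the junction protein VE-cadherin, had 836, 671, 895 and 678 CPM on day 0 and 772, 921 and 729 CPM on day 1.5, with overlapping animals. Of the list, 4 of 20 genes were lower (20%, against 3.59% over all genes) and 0 higher at an unadjusted p under 0.05, and the list median was -0.27 against -0.05 over all genes. The direction of this list rested on the readout. Its median was -0.16 without m6, and it turned to 0.15 on centred and 0.31 on uncentred mean log values per cell.

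Leukocyte, mural and stromal markers were scarce in sum, whereas single markers of the lymphatic and epithelial lists were not. Leukocyte markers summed to 13.8 to 62.7 CPM on day 0 and 20.1 to 33.1 CPM on day 1.5. Of these 19 genes, 11 stayed under 1 CPM, among them Ptprc, which encodes CD45, and Adgre1 and Nkg7, which had no read in any of the 7 animals. Of 8 tested, 2 were higher (25%, against 4.49% over all genes) and 0 lower at an unadjusted p under 0.05, Laptm5 in 0 control and 4 day 1.5 cells and Coro1a in 1 and 4. Ms4a1, a B cell marker, was read in 25.9% ± 2.13 of cells on day 0 and 26.5% ± 2.24 on day 1.5. Mural and stromal markers summed to 5.09 to 43.4 CPM and 3.69 to 34.4 CPM, with Lum at 0. Of 9 tested, 2 were higher (22.2%, against 4.49% over all genes) and 0 lower at an unadjusted p under 0.05. Acta2, smooth muscle actin, had 0.388, 0.0863, 0.889 and 0.206 CPM on day 0 and 2.42, 1.24 and 11.5 CPM on day 1.5 in 5.13% ± 1.99 of cells on day 0 and 11.8% ± 3.61 on day 1.5, with no overlap in level. Tagln, another smooth muscle marker, was read in 11 control and 56 day 1.5 cells, and Col3a1, a fibroblast collagen, in 3 and 11. The list median was 0.89, but -0.32 without m5 and -0.25 without m7. The part of these cells in the matrix and Myl9 values was not tested. Several of these genes, Ptprc and Acta2 among them, were used by the authors to discard contaminating cells, so their scarcity is partly set by that filter. Lymphatic markers, led by Lyve1, reached 352 to 881 CPM and 441 to 800.4 CPM, and Lyve1 was read in 47.9% ± 5.33 of cells on day 0 and 56.7% ± 10.3 on day 1.5. Epithelial and tumour markers summed to 778 to 1126 CPM and 630.2 to 831 CPM, most of it Hopx in every animal, with 645, 855, 1096 and 873 CPM on day 0 and 671, 666 and 616 CPM on day 1.5 in 64.7% ± 10.1 of cells on day 0 and 60.1% ± 11.5 on day 1.5.

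Haemoglobin transcripts differed between the days in all animals, and platelet transcripts in part of them. The 4 haemoglobin genes summed to 234 to 2985 CPM on day 0, highest in m4, and to 67.3 to 104 CPM on day 1.5, with no overlap. Platelet genes went the other way, from 0.518 to 5.84 CPM on day 0 to 5.04 to 138 CPM on day 1.5. The 2 animals m6 and m7 held almost all of it, while m5 lay within the range of the controls. Pf4, a platelet chemokine, was read in 4 day 0 cells and 32 day 1.5 cells. The part of these transcripts in other results was not tested.

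**Figure D1:**
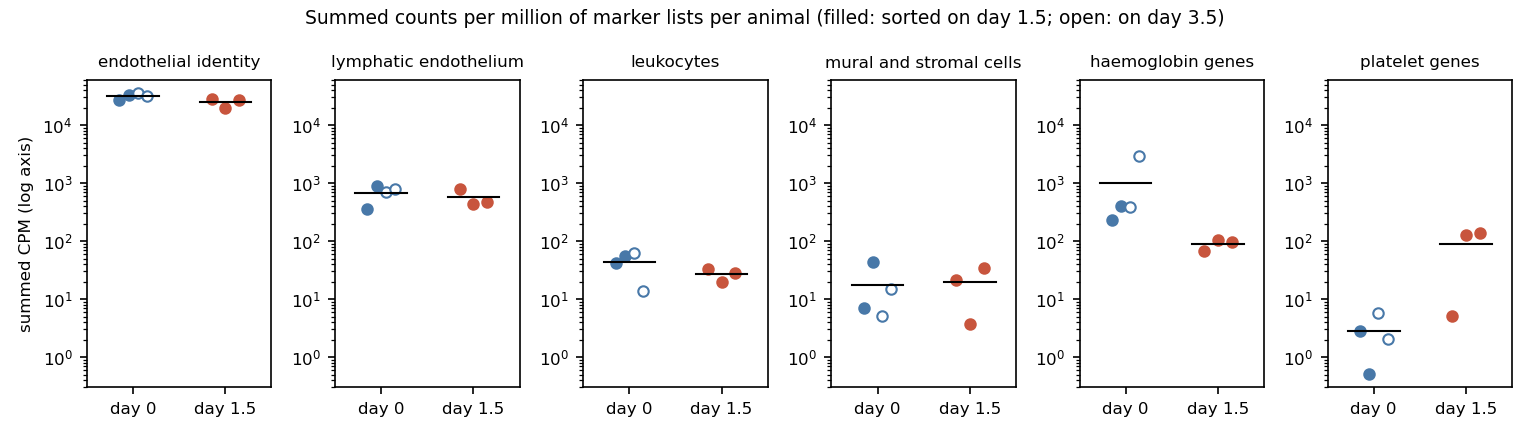
Summed CPM of marker lists (vertical log axis) in each of the 4 day 0 and 3 day 1.5 animals; horizontal bars are means, filled points were sorted on day 1.5 and open points on day 3.5. Endothelial markers dominate in every animal at 20074 to 35351 CPM, haemoglobin genes are lower on day 1.5 and platelet genes are higher in m6 and m7.

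The first question put to these cells is how the lung endothelium as a whole had changed once tumour cells had arrived. Reads were summed over the kept cells of each animal and tested with edgeR's quasi-likelihood test, with the animal as the replicate. Of 17585 genes, none passed an adjusted p of 0.05, and the smallest adjusted p was 0.0926, for Cxcl10. Without adjustment 1422 genes (8.09%) had a p under 0.05, 790 of them higher (4.49%) and 632 lower (3.59%) on day 1.5, and in 1315 genes (7.48%) the animals of the days did not overlap, 720 of them higher (4.09%) and 595 lower (3.38%). DESeq2 on the same sums called 353 genes (2.01%), 202 higher (1.15%) and 151 lower (0.859%). A sum over cells weights a few cells rich in a transcript as heavily as a change spread over many cells, so 2 readouts that count each cell once were set beside it. In the first, limma on the mean deposited log10 value per animal, centred on each animal's median over genes, called 134 of 10925 genes (1.23%), 112 higher (1.03%) and 22 lower (0.201%). In the second, limma on the share of cells with a read after every cell was thinned to 100000 reads, centred in the same way, called 44 genes (0.403%), 31 higher (0.284%) and 13 lower (0.119%). Before centring, 7845 of the 10925 genes (71.8%) were read in a larger share of thinned cells on day 1.5, with a median difference of 1.09 percentage points. Thinning left out 16 to 40 shallower cells per day 0 animal and 23 to 35 per day 1.5 animal. Of these 44 genes, 37 were called on the mean log values too, and 18 of those by DESeq2 as well, 12 higher and 6 lower. The 18 include matrix genes, the secreted factor Lrg1 and the regulators Bcl3 and Sbno2. Among those lower on day 1.5 were the clock repressors Nr1d1 and Nr1d2, the glucose-responsive gene Txnip and the haemoglobin gene Hba-a2. All readouts rest on the same 7 animals and are not independent of each other. In summed reads, fewer expressing cells and less RNA per cell cannot be told apart, which is why the share of cells is given beside the level for many genes. For genes given by their level only, this limit holds. Values in CPM compare 1 gene across animals and not different genes, since they are not divided by transcript length.

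**Figure D2:**
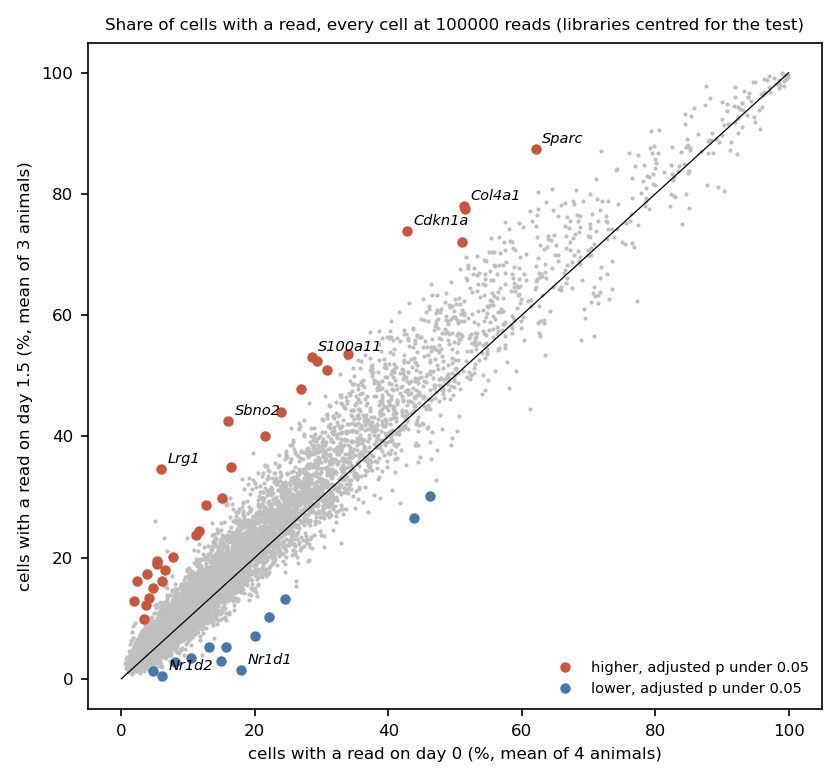
Share of cells with a read on day 0 (horizontal, mean of 4 animals, %) and day 1.5 (vertical, mean of 3 animals, %) with every cell thinned to 100000 reads, 1 point per gene for 10925 genes; coloured genes passed an adjusted p of 0.05 in limma on centred shares (31 higher, 13 lower). The cloud lies slightly above the line of equality, and Lrg1, Sbno2, Cdkn1a and Col4a1 stand above it while Nr1d1 and Nr1d2 lie near 0 on day 1.5.

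The 18 genes called by DESeq2 and both limma readouts include the matrix genes Col4a1, Col4a2, Col18a1 and Sparc. All are in the basement membrane and collagen processing list. Of its 23 genes tested on the centred thinned share, limma called these 4 higher, against 0.284% of all genes. The list was chosen with earlier results of these data known, so this is a description. Collagen IV is the network-forming collagen of the vascular basement membrane, and its main trimer joins the chains of Col4a1 and Col4a2. Col4a1 (chr8:11198423-11312826, GRCm38, minus strand) had 505, 581, 499 and 646 CPM in the day 0 animals m1 to m4 and 1098, 1314 and 1199 CPM in the day 1.5 animals m5 to m7. The lowest day 1.5 animal was well above the highest day 0 animal. The log2 difference was 1.11 ± 0.15 (SE), with an edgeR adjusted p of 0.176, a DESeq2 adjusted p of 7.62e-08 and 0.00105 for limma on mean log values. Col4a1 was read in 63.99% ± 7.52 of cells on day 0 and 89.1% ± 5.05 on day 1.5, or 51.4% and 78.04% after thinning (limma adjusted p = 0.00197). The transcript was thus read in most cells on both days.

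Col4a2 (chr8:11312805-11449287, plus strand) had 407, 676, 711 and 712 CPM on day 0 and 1268, 1571 and 1422 CPM on day 1.5. Again no animals overlapped, and m1 was the lowest of the controls. The log2 difference was 1.18 ± 0.20 (edgeR adjusted p = 0.301; DESeq2 adjusted p = 0.000233), and the share of cells with a read went from 61.7% ± 12.4 to 89.0% ± 4.90. The levels on day 3.5 had a mean of 1132 CPM for Col4a1 and 1481 CPM for Col4a2, close to those of day 1.5. The genes lie head to head, with annotated starts 21 bases apart on opposite strands, so that the windows from 250 bases before to 50 bases after each start share 78 bases. Both windows are shown because the pair moved together and is read from this common stretch, whose bases are in capitals (RefSeq, GRCm38.p6, chr8:11312777-11313076 on the minus strand and chr8:11312555-11312854 on the plus strand, each 5′ to 3′).
Col4a1: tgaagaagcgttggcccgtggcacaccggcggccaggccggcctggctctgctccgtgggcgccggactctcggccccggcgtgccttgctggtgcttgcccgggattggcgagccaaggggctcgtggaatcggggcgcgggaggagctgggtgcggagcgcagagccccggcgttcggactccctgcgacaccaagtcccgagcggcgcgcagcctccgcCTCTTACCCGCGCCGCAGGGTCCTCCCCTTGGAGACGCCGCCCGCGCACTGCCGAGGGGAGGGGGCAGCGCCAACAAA
Col4a2: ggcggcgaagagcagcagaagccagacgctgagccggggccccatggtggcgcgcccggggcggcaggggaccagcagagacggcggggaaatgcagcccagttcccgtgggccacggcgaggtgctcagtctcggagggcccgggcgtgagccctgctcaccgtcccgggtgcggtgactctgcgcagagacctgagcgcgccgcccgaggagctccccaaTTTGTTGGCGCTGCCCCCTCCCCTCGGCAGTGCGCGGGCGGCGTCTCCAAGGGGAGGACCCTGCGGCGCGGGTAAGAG
The library protocol does not keep the strand, but by these positions the genes overlap each other only at their 5′ ends.

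Sparc, a secreted collagen-binding protein of basement membranes, had 975, 1489, 1395 and 1579 CPM on day 0 and 2907, 2215 and 3731 CPM on day 1.5. Its day 1.5 animals all exceeded the controls, by 1.12 ± 0.25 on the log2 scale (edgeR adjusted p = 0.403; limma on mean log values, adjusted p = 0.00105). Col18a1, whose product collagen XVIII carries the endostatin fragment, was nearly silent in controls, with 22.6, 1.19, 0.731 and 10.8 CPM, and had 107, 266 and 137 CPM on day 1.5. In the controls most of this came from single cells (up to 97.7% of an animal's reads from 1 cell), whereas on day 1.5 the gene was read in 228 of 941 cells against 34 of 839. The share was 4.18% ± 2.02 of cells on day 0 and 24.5% ± 8.14 on day 1.5. Named genes had to be read in at least 10% of cells of every animal of the higher day, which Col18a1 met only on day 1.5, so its shares are a description. With the richest cell of each animal left out, Col18a1 was called by edgeR, at an adjusted p of 0.00992. Adamts1, a secreted protease that cleaves matrix proteoglycans and was singled out after its values were seen, had 89.7, 71.05, 41.9 and 105 CPM on day 0 and 172, 147 and 155 CPM on day 1.5, a log2 difference of 1.04 ± 0.31 (edgeR adjusted p = 0.479; centred thinned share, limma adjusted p = 0.0146). Of 33 basement membrane and collagen processing genes tested, 7 were higher (21.2%) and 2 lower (6.06%) at an unadjusted p under 0.05, against 4.49% and 3.59% over all genes. The animals of 8 were apart upwards (24.2%) and of 1 downwards (3.03%), against 4.09% and 3.38%. The median log2 difference was 0.38 against -0.05 over all genes. The lower members were Itga1, a collagen-binding integrin chain, with 609, 700.3, 478 and 833 CPM on day 0 and 390.1, 404 and 512 CPM on day 1.5, and P4ha2, a proline hydroxylase that collagen folding needs, with 26.7, 71.6, 35.3 and 22 CPM on day 0 and 20.2, 7.53 and 16.2 CPM on day 1.5. The animals overlapped for Itga1 and not for P4ha2. Lamb1, Col4a3 and Nid2 were among the higher members by p, but were read in only 21, 7 and 6 day 1.5 cells.

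**Figure D3:**
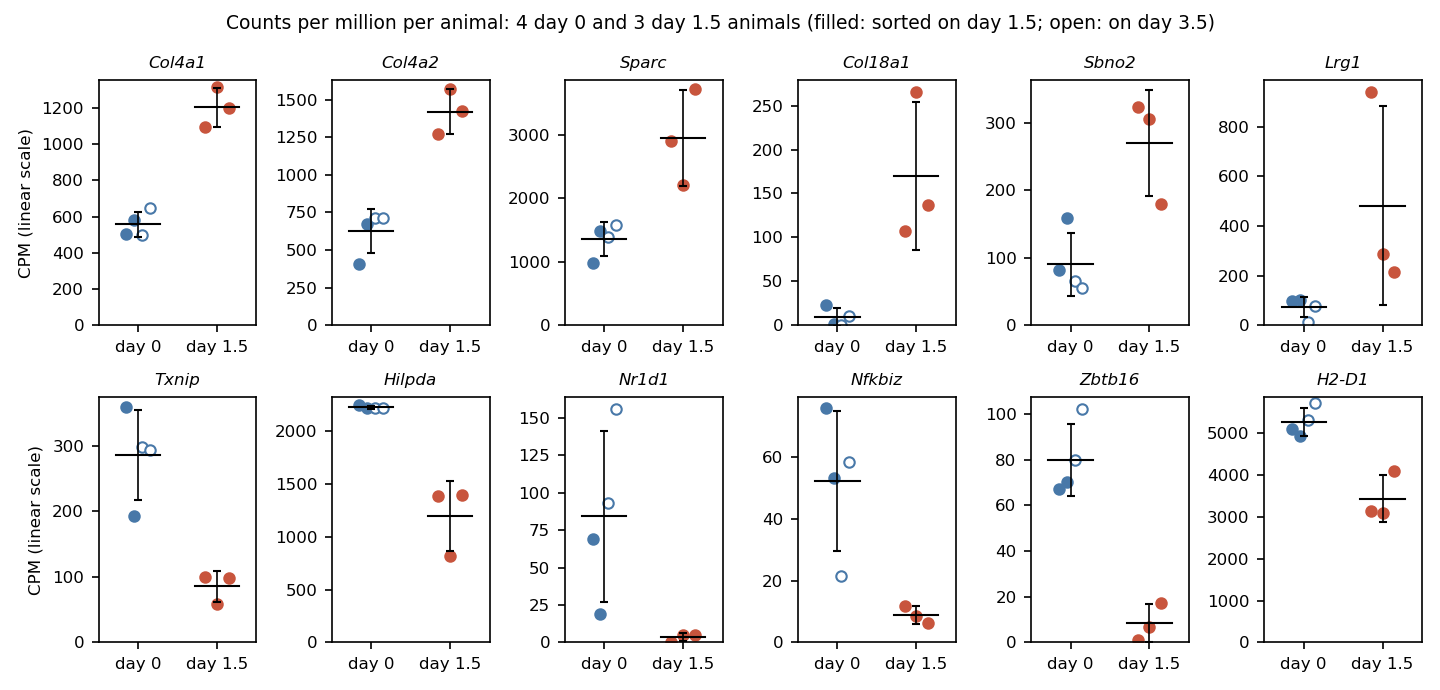
CPM (linear axis from 0) of 12 genes in each of the 4 day 0 and 3 day 1.5 animals; bars are mean ± SD, filled points were sorted on day 1.5 and open points on day 3.5. The animals of the days do not overlap for any of the 12, with Col4a1, Col4a2, Sparc, Col18a1, Sbno2 and Lrg1 higher and Txnip, Hilpda, Nr1d1, Nfkbiz, Zbtb16 and H2-D1 lower on day 1.5.

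Lrg1, Sbno2 and Bcl3 were each read in a larger share of cells on day 1.5. Lrg1 was listed among the angiokines, Bcl3 among the NF-kB targets and Sbno2 in no list, and Bcl3 was singled out after its values were seen. Lrg1 encodes a secreted leucine-rich glycoprotein that modulates TGF-beta signalling in vessels, and had 99.4, 101, 14.4 and 76 CPM on day 0 and 943, 288 and 214 CPM on day 1.5. The day 1.5 animals lay above every control, but m5 was far above m6 and m7, and the SE was wide (log2 difference 2.73 ± 0.78, edgeR adjusted p = 0.471). In shares of cells the animals were closer. Lrg1 was read in 7.75% ± 2.84 of cells on day 0 and 45.3% ± 15.8 on day 1.5 (5.98% and 34.6% after thinning, limma adjusted p = 0.000285), that is in 64 of 839 and 426 of 941 cells. Its mean on day 3.5 was 762 CPM.

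Sbno2, a transcriptional regulator, had 82.6, 158, 65.3 and 55.7 CPM on day 0 and 324, 306 and 179.9 CPM on day 1.5. The lowest day 1.5 animal, m7, was close to the highest control, m2. The log2 difference was 1.58 ± 0.36 (edgeR adjusted p = 0.403). Sbno2 was read in 21.7% ± 3.21 of cells on day 0 and 50.4% ± 2.81 on day 1.5, or 16.1% and 42.5% after thinning. It had the smallest adjusted p of all genes on the centred thinned share (limma adjusted p = 0.000106). On the uncentred thinned share it tied with Lrg1 and Col18a1 (limma adjusted p = 0.0001005 each). Bcl3, an atypical inhibitor of NF-kB proteins, had 8.60, 5.26, 7.32 and 0.824 CPM on day 0 and 39.3, 24 and 35.1 CPM on day 1.5, with 6.80% ± 2.02 of cells on day 0 and 23.3% ± 5.45 on day 1.5 and a log2 difference of 2.58 ± 0.73 (edgeR adjusted p = 0.471; centred thinned share, limma adjusted p = 0.000543). Timp1, an inhibitor of matrix metalloproteinases, went from 0, 0.788, 0.0122 and 0 CPM in controls, 3 cells in all, to 21.7, 24.7 and 33.9 CPM in 55 cells. It was called by edgeR when m2 was left out (adjusted p = 0.0381) and without the richest cells (adjusted p = 0.00992), and by limma with every cell at equal weight (adjusted p = 0.0400), but not by edgeR with all animals and cells (adjusted p = 0.415). Ch25h, which makes the lipid 25-hydroxycholesterol, was read in 1 control cell and 28 day 1.5 cells.

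Cytokines of the interleukin-6 (IL-6) family act on ECs through the transcription factor STAT3. Of 24 IL-6 and STAT3 response genes tested, 4 were higher (16.7%) and 1 lower (4.17%) at an unadjusted p under 0.05, against 4.49% and 3.59% over all genes, and the list median was 0.08 in summed reads, 0.29 without m1, 0.18 without m3, 0.17 without m7, 0.0150 without m6 and 0.57 on centred mean log values. The higher members were Ch25h, Timp1, Lbp and Serpina3n, of which Lbp, the lipopolysaccharide-binding protein, had 18.5, 11.7, 4.41 and 29.1 CPM on day 0 and 122, 73.4 and 17.2 CPM on day 1.5 with overlapping animals. Socs3, the feedback inhibitor of this pathway and its usual readout, had 18.3, 3.25, 8.91 and 56.4 CPM on day 0 and 18.3, 17.5 and 13.1 CPM on day 1.5, so that all day 1.5 animals lay within the range of the controls (log2 difference -0.41 ± 0.79, edgeR adjusted p = 0.933). Tnfrsf1b, a TNF receptor, was the lower member, at 3.96, 0.572, 0.110 and 26.7 CPM on day 0 and 0.813, 0.569 and 0.386 CPM on day 1.5, and its control level rested on m1 and m4. The transcription factor Cebpd, which was singled out after its values were seen, differed by only 0.37 ± 0.41 in summed reads, while its share of cells after thinning was 30.9% and 51.03% (limma adjusted p = 0.0310). The letters that STAT factors bind, TTCNNNGAA, were searched on both strands in the promoter windows, and were present in 7.18% of the 11376 tested genes with a window and in 5 of 20 list members. Sbno2 is shown because it had the smallest adjusted p in the centred thinned share of cells, although it is not in the list. The counts above used only the first window of each gene, whereas all 3 windows of Sbno2 were searched. The windows of the first 2 of 3 annotated starts each hold a match, in capitals (RefSeq, GRCm38.p6, minus strand, chr10:80102653-80102952 and chr10:80101138-80101437, each 5′ to 3′).
Sbno2, first start: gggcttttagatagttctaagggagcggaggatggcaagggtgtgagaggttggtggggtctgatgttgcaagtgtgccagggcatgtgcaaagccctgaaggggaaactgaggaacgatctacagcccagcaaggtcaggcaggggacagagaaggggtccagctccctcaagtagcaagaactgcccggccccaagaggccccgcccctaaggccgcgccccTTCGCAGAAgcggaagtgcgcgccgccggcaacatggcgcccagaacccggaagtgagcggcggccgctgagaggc
Sbno2, second start: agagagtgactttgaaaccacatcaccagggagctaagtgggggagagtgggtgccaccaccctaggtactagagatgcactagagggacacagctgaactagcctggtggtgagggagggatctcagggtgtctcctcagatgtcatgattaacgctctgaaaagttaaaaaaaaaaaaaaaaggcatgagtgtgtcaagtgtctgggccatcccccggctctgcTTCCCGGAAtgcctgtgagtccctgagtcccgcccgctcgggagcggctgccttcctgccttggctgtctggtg
A match is a run of letters, not a measured binding site.

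Cxcl10, a chemokine that attracts T cells and natural killer cells, had the smallest p in edgeR and was read in few cells. It was read in 1 of 839 control cells and in 36 of 941 day 1.5 cells, with 0, 0, 0 and 0.0129 CPM on day 0 and 83.9, 25.3 and 61.6 CPM on day 1.5. All 3 day 1.5 animals thus carried the transcript and the controls had almost none. The level rested on very few cells, since a single cell held 91.5%, 60.5% and 93.6% of the Cxcl10 reads of m5, m6 and m7. The share of cells was 0.139% ± 0.278 of cells on day 0 and 3.81% ± 0.703 on day 1.5, and the mean level on day 3.5 was 7.93 CPM. The Cxcl10 promoter window holds a match to the interferon-stimulated response element (ISRE) that starts 213 bases before the gene start, in capitals (RefSeq, GRCm38.p6, chr5:92348840-92349139, minus strand, 5′ to 3′).
Cxcl10: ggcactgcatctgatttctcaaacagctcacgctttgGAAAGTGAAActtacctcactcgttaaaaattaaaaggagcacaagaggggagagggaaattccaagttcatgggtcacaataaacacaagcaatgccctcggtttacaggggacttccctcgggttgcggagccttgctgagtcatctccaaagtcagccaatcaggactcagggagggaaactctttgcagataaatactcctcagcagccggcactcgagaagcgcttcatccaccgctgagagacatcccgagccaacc
An ISRE on either strand was in 3.25% of the windows of all tested genes and in 20 of 37 windows of the interferon list. Of the 5 angiokines of the study, secreted immune-modulatory proteins of ECs, 4 could be tested, and Cxcl10 and Lrg1 were apart upwards (4.09% of all genes were). Angpt2, a destabilising ligand of the Tie2 receptor, had 4.35, 20.5, 21.98 and 44.6 CPM on day 0 and 38.3, 22.5 and 22.1 CPM on day 1.5, and Slit3, a guidance ligand, 0.482, 0.572, 1.72 and 4.93 CPM on day 0 and 14.7, 1.08 and 2.03 CPM on day 1.5, both with overlapping animals. Ccl5 was read in 0 control cells and 5 day 1.5 cells and was too sparse to test.

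Across the interferon list, 9 of 53 genes were higher (17%) and 2 lower (3.77%) at an unadjusted p under 0.05, against 4.49% and 3.59% over all genes. The animals of 7 were apart upwards (13.2%) and of 1 downwards (1.89%), against 4.09% and 3.38%, and the median was 0.31 (0.54 without m2 and 0.51 without m3). Ifitm3, a membrane protein that restricts virus entry and is abundant in resting lung ECs, had 5679.8, 7734, 6517 and 7296 CPM on day 0 and 13991, 9880.5 and 9494 CPM on day 1.5. It was read in 95.6% ± 3.23 of cells on day 0 and 99.6% ± 0.452 on day 1.5, and differed by 0.71 ± 0.18 on the log2 scale (edgeR adjusted p = 0.415; limma on mean log values, adjusted p = 0.000605). Usp18, which removes the ubiquitin-like protein ISG15 and damps the interferon receptor, had 10.7, 10.16, 17.7 and 12.1 CPM on day 0 and 35.8, 59.5 and 24.4 CPM on day 1.5. The DESeq2 adjusted p was 0.00262, against 0.424 in edgeR. In limma it was 0.1625 on centred mean log values and 0.176 on the centred thinned share. Xaf1, a proapoptotic interferon target, had 239, 272, 244 and 283 CPM on day 0 and 432, 399.6 and 381 CPM on day 1.5, with tightly grouped animals on each day. Isg15 itself had 9.68, 14.4, 5.41 and 5.81 CPM on day 0 and 92.1, 25.4 and 14.3 CPM on day 1.5 and was driven by m5. The lower members were Irf1 and Ifi35, the latter at 352, 438, 343 and 428 CPM on day 0 and 274, 229.8 and 211 CPM on day 1.5, with no overlap.

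Of 26 NF-kB targets and leukocyte adhesion genes tested, 4 were higher (15.4%) and 1 lower (3.85%) at an unadjusted p under 0.05, against 4.49% and 3.59% over all genes. Their median was 0.50 in summed reads, 0.22 without m5, 0.27 without m4 and 0.06 on centred mean log values. Icam1 had 193, 303, 241 and 244 CPM on day 0 and 235, 246 and 182 CPM on day 1.5 and Vcam1 34.4, 10.6, 9.32 and 24.5 CPM on day 0 and 38.03, 66.8 and 17.3 CPM on day 1.5, both with overlapping days. Ackr1, a chemokine-binding receptor of venules, and Sele, the adhesion molecule E-selectin, had 0 reads in every control and were read in 21 and 6 day 1.5 cells, Ackr1 in m5 and m6 and Sele in m5 and m7. Nfkbiz, encoding the NF-kB cofactor IkappaB-zeta, was the lower member, with 75.9, 53.3, 21.6 and 58.6 CPM on day 0 and 11.8, 8.51 and 6.21 CPM on day 1.5 (log2 difference -2.56 ± 0.52, edgeR adjusted p = 0.384; DESeq2 adjusted p = 8.16e-06). The share of cells with Nfkbiz did not follow its level, at 11.1% ± 1.08 of cells on day 0 and 13.4% ± 3.60 on day 1.5.

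Single genes of antigen presentation had lower summed reads in every day 1.5 animal, while most members of their lists passed no test. H2-D1, a classical MHC class I heavy chain, had 5105, 4949, 5320.0 and 5722 CPM on day 0 and 3138, 3091 and 4099 CPM on day 1.5, with a log2 difference of -0.62 ± 0.14 (edgeR adjusted p = 0.407). H2-K1 had 1948, 1941, 1839 and 2008 CPM on day 0 and 1479, 1348 and 1538 CPM on day 1.5. For both genes the highest day 1.5 animal was below the lowest control, and nearly every cell of both days was positive. Class I genes are near-identical copies, and reads of BALB/c animals were assigned to a C57BL/6 reference, so that the values of single members are uncertain. B2m, the invariant light chain, overlapped at 8042, 10263, 11962 and 13114 CPM on day 0 and 9709, 5026 and 12751 CPM on day 1.5, with m6 lowest. Of 23 class I pathway genes, 4 were lower (17.4%, against 3.59% over all genes) and 0 higher at an unadjusted p under 0.05 (median -0.29, with 7 of 23 above 0), and of 10 class II genes 3 were lower (30%) and 0 higher (median -0.99). The class I median was -0.14 to -0.19 without m2, m3, m4 or m6 in turn and -0.01 on centred mean log values. Summed class II reads were 2440, 1186, 1262 and 1414 CPM in the controls and 188, 1343 and 1060 CPM on day 1.5, so the days overlapped and m5 was far below the rest. Without m5 the class II median was -0.48. On centred mean log values it was -0.39, and limma called no class II member. Ciita, the master activator of class II genes, had 76.4, 12.8, 12.9 and 36.9 CPM on day 0 and 6.58, 7.44 and 4.26 CPM on day 1.5, and H2-Aa, a class II alpha chain, 374, 203, 186 and 300.3 CPM on day 0 and 51.6, 148 and 173 CPM on day 1.5. Both were apart between the days in level, but their shares of cells overlapped. Ciita was read in 5.97% of cells on day 0 and 4.72% on day 1.5, and H2-Aa in 32.4% and 26.7%. A single cell held up to 80.2% of an animal's Ciita reads. Cd74, the class II invariant chain, ranged from 0.626 CPM in m5 to 516 CPM in m6, a wider spread than the difference between days. B2m is also among the housekeeping genes by which the authors scaled each cell, which touches the mean log values and not the summed reads.

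Of 20 circadian clock genes 6 were lower (30%) and 1 higher (5%) at an unadjusted p under 0.05, against 3.59% and 4.49% over all genes, with a median of -1.06. The animals of 2 were apart downwards (10%, against 3.38%) and of 1 upwards (5%, against 4.09%). In the animals sorted together 2 were lower and 1 higher, against 3.36% and 4.33% of all genes in that setting, with a median of -0.69. The median was -0.58 without m1, -0.52 without m4, -0.58 without m5 and -0.25 on centred mean log values. Nr1d1 and Nr1d2 encode the REV-ERB receptors, repressors whose transcripts cycle strongly over the day. Nr1d1 had 69.2, 18.7, 93.1 and 156 CPM on day 0 and 0.438, 5.27 and 5.21 CPM on day 1.5. Every control was above every day 1.5 animal, although m2 was well below the other controls. The log2 difference was -4.53 ± 0.96 (edgeR adjusted p = 0.384; DESeq2 adjusted p = 1.46e-05), and the gene was read in 20.7% ± 14.3 of cells on day 0 and 1.92% ± 0.128 on day 1.5 (18% and 1.42% after thinning, limma adjusted p = 0.000745). Nr1d1 overlaps the end of Thra on the opposite strand, and without strand their shared reads cannot be told apart. Nr1d2 had 16.1, 48.8, 19.3 and 43.7 CPM on day 0 and 0, 2.31 and 0.0987 CPM on day 1.5 and was read in 70 control and 5 day 1.5 cells, with a limma adjusted p of 0.000489 for the thinned share. The limma filter of 5% of cells pools all days, and Nr1d1 and Nr1d2 met it mainly through cells of the other days. Their limma p are therefore given as a description. Dbp and Tef, output factors of the clock, were read in fewer cells on day 1.5, 14.96% and 2.87% and 10.5% and 3.46% after thinning (limma adjusted p = 0.0121 and 0.0282), while their summed reads overlapped. On the opposite arm Npas2 was read in 2 and 7 cells and Arntl, the core activator BMAL1, in 6 and 37. The day 3.5 means were 49.5 CPM for Nr1d1 and 26.8 CPM for Nr1d2. The hour of tissue collection is not given in the sources used here.

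Of 16 targets of glucocorticoid hormones 1 was higher (6.25%) and 2 were lower (12.5%) at an unadjusted p under 0.05, against 4.49% and 3.59% over all genes. Their median was -0.41, but -0.11 without m6, -0.16 without m2 and -0.23 without m4. On mean log values it was -0.15 centred and 0.0128 uncentred. Zbtb16, a zinc finger factor strongly induced by glucocorticoids, had 67.3, 70.2, 79.8 and 102 CPM on day 0 and 1.09, 6.81 and 17.4 CPM on day 1.5 and Klf9 74.9, 92.8, 65.8 and 99.1 CPM on day 0 and 39.99, 36.7 and 38.2 CPM on day 1.5. Both were lower in every day 1.5 animal, whereas Fkbp5, with 23.8, 7.44, 2.38 and 3.90 CPM on day 0 and 32.4, 3.30 and 4.23 CPM on day 1.5, and Tsc22d3, with 90.4, 49.7, 39.6 and 67.5 CPM on day 0 and 56.3, 9.57 and 48.8 CPM on day 1.5, overlapped. Mt2, the higher member by that p, was read in 10 day 1.5 cells and rested on m6. Cdkn1a, also in this list, did not reach that p, but its animals were apart upwards. Its values are given with the cell cycle genes. Immediate early genes, which respond within minutes to tissue dissociation, counted 3 of 26 lower (11.5%) and 0 higher (median -0.08, from -0.31 without m5 to -0.0050 without m1), among them Jun, with 809.9, 1031, 904 and 1246 CPM on day 0 and 661, 773 and 543 CPM on day 1.5, and Ier3, with 419, 405, 507 and 476 CPM on day 0 and 300.3, 208 and 311 CPM on day 1.5.

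Several single genes were lower on day 1.5 outside these groups. Txnip, an inhibitor of glucose uptake whose transcript follows glucose supply, had 359, 193, 299 and 294 CPM on day 0 and 100.2, 58.2 and 98.3 CPM on day 1.5. Its log2 difference was -1.74 ± 0.29 (edgeR adjusted p = 0.301; DESeq2 adjusted p = 8.66e-06), and the share of cells was 54.8% ± 4.94 of cells on day 0 and 34.2% ± 7.61 on day 1.5, so level and share went the same way. Hilpda, a hypoxia-induced lipid droplet protein, had 2251, 2223, 2219 and 2218 CPM on day 0 and 1386, 815 and 1395 CPM on day 1.5. Its controls nearly coincided, and m6 was lowest on day 1.5. Ephx1, a detoxifying epoxide hydrolase that was singled out after its values were seen, had 194, 129.6, 70.6 and 90.6 CPM on day 0 and 43.3, 33.2 and 32.9 CPM on day 1.5 and passed limma on the thinned share (24.5% and 13.2%, adjusted p = 0.00888).

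For the other lower genes chosen by p, the shares of cells were set beside the levels. Coro1b, an actin regulator, had 185, 216, 144 and 146 CPM on day 0 and 64.8, 59.2 and 67.8 CPM on day 1.5, a log2 difference of -1.43 ± 0.26 (edgeR adjusted p = 0.332; DESeq2 adjusted p = 8.38e-07), but was read in 34.4% ± 5.79 of cells on day 0 and 36.4% ± 4.95 on day 1.5. Vav3, a guanine nucleotide exchange factor, had 160.2, 125, 103 and 108 CPM on day 0 and 48.9, 48.7 and 54.5 CPM on day 1.5 with 19.5% ± 2.82 of cells on day 0 and 19.1% ± 3.37 on day 1.5. The shares of both genes overlapped between the days. Eva1b was read in 56.7% ± 8.05 of cells on day 0 and 51.01% ± 7.36 on day 1.5 and Tspan13 in 93.5% ± 3.65 of cells on day 0 and 91.8% ± 3.58 on day 1.5, lower on average with overlapping animals, as was Polr2c in 46.4% ± 6.17 of cells on day 0 and 45.2% ± 5.44 on day 1.5. Taf13 was read in 20.4% ± 2.00 of cells on day 0 and 20.5% ± 3.69 on day 1.5 and Ppp2r5d in 12.6% ± 2.30 of cells on day 0 and 13.5% ± 1.40 on day 1.5, also with overlap. Eva1b, Taf13, Polr2c, Tspan13 and Ppp2r5d had log2 differences in level of -0.92, -1.31, -1.01, -0.53 and -1.85 and centred mean log values that did not pass (limma adjusted p from 0.381 for Eva1b to 0.912 for Ppp2r5d). Taf13 and Polr2c are subunits of the transcription machinery, and Ppp2r5d of the phosphatase PP2A. Ivns1abp met the rule of 10% of cells only on day 0, and had 70.8, 132, 88.2 and 95.2 CPM on day 0 and 17.7, 4.12 and 22.4 CPM on day 1.5. It was read in 18.9% ± 2.15 of cells on day 0 and 12.6% ± 3.94 on day 1.5 (limma on mean log values, adjusted p = 0.110).

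Among the higher genes chosen by p, Syt15, Prc1, Vwa1, Rhpn2 and Myl9 had log2 differences of 3.24, 3.69, 3.45, 1.98 and 5.05 in level, with no overlap. Prc1, Vwa1 and Myl9 passed the rule of 10% of cells only on day 1.5, so nothing is read from their higher shares. After thinning, the shares of the 5 genes were 9.41% and 11.5%, 5.11% and 8.91%, 4.32% and 8.19%, 8.79% and 11.9% and 2.68% and 5.71%, and none passed limma on the centred thinned share (adjusted p from 0.516 for Prc1 to 0.930 for Syt15). Prc1 bundles microtubules in cell division, and Myl9 is a myosin light chain. The level of Myl9 rested on m6 and m7, with 0.321, 0.119, 0.195 and 0.193 CPM on day 0 and 0.594, 10.1 and 9.99 CPM on day 1.5. Single cells held up to 89.9% of an animal's Prc1 reads on day 1.5, and none of the 5 genes passed limma on mean log values (adjusted p from 0.445 for Myl9 to 0.574 for Syt15). Nlgn2, an adhesion protein best known from synapses, had 7.51, 20.5, 11.8 and 8.96 CPM on day 0 and 37.6, 36.3 and 51.97 CPM on day 1.5, with an adjusted p of 0.0487 for limma on mean log values and 0.255 on the centred thinned share. It too met the rule of 10% of cells only on day 1.5.

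Genes of the translation machinery were slightly higher as a group. Of 88 cytosolic ribosomal protein genes tested, 81 had a log2 difference above 0, against 8297 of all 17585 genes. Of these genes 26 were higher (29.5%, against 4.49% over all genes) and 0 lower at an unadjusted p under 0.05, 24 were apart upwards (27.3%, against 4.09%) and 0 downwards, and the median was 0.37. Rpl32, a subunit of the large ribosome particle, had 502, 719, 532 and 614 CPM on day 0 and 893, 838 and 982 CPM on day 1.5, a log2 difference of 0.61 ± 0.17 (edgeR adjusted p = 0.452). In the animals sorted together 8 of the 88 were higher at an unadjusted p under 0.05, against 4.33% of all genes in that setting, and the median was 0.34. Processed pseudogenes such as Rps12l1, Gm12854 and Gm15421 share reads with their parent genes and are uncertain as separate items. On centred mean log values the ribosomal median was 1.35. Several other lists also had higher medians on this readout than in summed reads. Other metabolic lists had few members past an unadjusted p of 0.05. Nuclear oxidative phosphorylation had 4 of 101 higher and 2 lower (median 0.09), glycolysis 1 of 19 higher and 0 lower (median -0.11), and the unfolded protein and integrated stress response 1 of 26 higher and 0 lower (median 0.10). Their medians on centred mean log values were 0.77, 0.14 and 0.45. Single animals turned some of these directions, with oxidative phosphorylation at -0.0154 without m6 and glycolysis at 0.18 without m1 and 0.04 without m4. The stress response median was 0.22 without m3 and 0.06 without m5. Hspa5, the main chaperone of the endoplasmic reticulum, had 559.9, 486, 505 and 644 CPM on day 0 and 891, 881 and 625 CPM on day 1.5, Ldha, the glycolytic enzyme that makes lactate, 105, 92.02, 129.9 and 71.8 CPM on day 0 and 157, 127 and 179 CPM on day 1.5, and Ndufb2, a subunit of respiratory complex I, 170.2, 376, 266 and 289.6 CPM on day 0 and 421, 513 and 366 CPM on day 1.5. Each of these had 1 or more day 1.5 animals within the range of the controls.

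The biosynthesis panel of the study was chosen on these same cells for being higher after tumour cell arrival, so its values are a description only. All 9 matched members were above 0 (median 0.91), and 7 of 9 were higher at an unadjusted p under 0.05. Emp3, a membrane protein of the panel, had 63.7, 142, 136 and 65.3 CPM on day 0 and 425, 432 and 152 CPM on day 1.5 and was read in 8.62% ± 2.87 of cells on day 0 and 26.2% ± 8.71 on day 1.5. S100a11, a calcium-binding protein of the same panel that was singled out after its values were seen, had 195, 197, 255 and 132 CPM on day 0 and 383, 367 and 371 CPM on day 1.5, with a log2 difference of 0.94 ± 0.25 and a share of 33.01% ± 3.11 of cells on day 0 and 58.8% ± 10.6 on day 1.5. Cytoskeleton and motility genes counted 7 of 36 higher (19.4%) and 3 lower (8.33%), against 4.49% and 3.59% over all genes (median 0.10, and 0.70 on centred mean log values). Emp3 and S100a11 are among the higher members, so this count is partly set by the choice of the panel. The panel also shares Rps15a and Rps12l1 with the ribosomal list, and Vwf with the large-vessel and haemostasis lists. Lgals1, which encodes galectin-1, had 5.33, 4.40, 2.49 and 0.0515 CPM on day 0 and 27, 414 and 33.98 CPM on day 1.5, and 1 cell of m6 held 95.3% of that animal's reads of the gene.

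Of 54 G2 and mitosis genes tested, 14 were higher (25.9%, against 4.49% over all genes) and 0 lower at an unadjusted p under 0.05, with a median of 0.96, and 41 of 54 were above 0. The median rested on single animals and on the readout, at 0.38 without m7, 0.64 without m2, 1.65 in the animals sorted together and 0.05 on centred mean log values. Summed reads of the list overlapped, at 1048 to 1480 CPM on day 0 and 1201 to 1655 CPM on day 1.5. Cenpe, a centromere motor protein, was read in 1 control and 22 day 1.5 cells, and Cdca3 in 4 and 14. Birc5, encoding survivin, had 0.749, 1.06, 4.67 and 1.18 CPM on day 0 and 25.3, 5.03 and 35 CPM on day 1.5, with up to 89.7% of reads from 1 cell. Mki67, the common marker of dividing cells, was read in 7 and 12 cells and overlapped at 0.0937, 1.14, 1.35 and 0 CPM on day 0 and 0.0156, 0.221 and 12.3 CPM on day 1.5. Cenpe, Cdca3, Birc5 and Mki67 were each highest in m7. The list of 55 S phase genes had 6 higher (10.9%), 2 lower (3.64%) and a median of 0.02, which was 0.31 without m2 and -0.19 without m7, with Mcm4, part of the replicative helicase, at 10.5, 6.27, 2.28 and 12.96 CPM on day 0 and 41.5, 71.4 and 10.5 CPM on day 1.5. Cdkn1a, the cell cycle inhibitor p21, which was singled out after its values were seen, was read in 54.8% ± 3.31 of cells on day 0 and 84.4% ± 4.02 on day 1.5 (42.9% and 73.8% after thinning, limma adjusted p = 0.00745). Its summed reads, 917, 1065, 892 and 368 CPM on day 0 and 1396, 1284 and 1252 CPM on day 1.5, were apart too, with m4 far below the other controls.

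Of 12 aCap markers 3 (25%) were lower and 0 higher at an unadjusted p under 0.05, against 3.59% lower over all genes. Their median was -0.60 and 11 of 12 lay below 0. Summed aCap markers were 1155 to 1470 CPM on day 0 and 804 to 1105 CPM on day 1.5, with no overlap. On centred mean log values the aCap median was -0.25 and no member passed. The list was led by Enho, with 219.6, 316, 319 and 273 CPM on day 0 and 182, 144 and 93.8 CPM on day 1.5, and Meox1, with 57.3, 61.1, 105 and 46.99 CPM on day 0 and 24.6, 42.5 and 31.8 CPM on day 1.5. Of 13 gCap markers 0 were higher and 0 lower, and the median of -0.18 in summed reads was -0.09 without m6 and turned to 0.19 on centred mean log values. Of 12 large-vessel markers 3 (25%) were higher and 0 lower, against 4.49% higher over all genes (median 0.40, and 0.62 without m2), among them Vwf, the platelet-tethering protein of larger vessels, with 451, 465, 237 and 411 CPM on day 0 and 862, 621 and 525 CPM on day 1.5. Vwf was read in 29.6% ± 4.18 of cells on day 0 and 53.4% ± 9.43 on day 1.5. It also belongs to the biosynthesis panel chosen on these cells, so its values are a description. Fbln5, an elastic fibre protein, was read in 26 control and 72 day 1.5 cells. Within the animals sorted together the large-vessel median was 0.06, against 0.40 over all controls, and the log2 difference of Vwf was 0.55 against 0.77. Tmem100, a BMP-dependent gene of capillaries, had 1324, 1603, 1713 and 1819 CPM on day 0 and 1068, 858 and 1135 CPM on day 1.5, the lower end of the endothelial identity list.

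Of 38 angiogenesis and sprouting genes 2 were higher (5.26%) and 4 lower (10.5%) at an unadjusted p under 0.05, against 4.49% and 3.59% over all genes, and 5 were apart downwards (13.2%, against 3.38% over all genes). Their median was -0.09, but 0.02 without m4, -0.25 without m5 and 0.10 on centred mean log values. The netrin receptor gene Unc5b had 72.2, 37.99, 38.1 and 53.9 CPM on day 0 and 131, 146 and 101 CPM on day 1.5 and the receptor gene Notch4 259, 321, 398 and 367 CPM on day 0 and 204, 163 and 229.9 CPM on day 1.5, apart in opposite directions (log2 differences 1.32 ± 0.34 and -0.76 ± 0.22, edgeR adjusted p = 0.423 and 0.471). Of 17 flow-responsive factors 1 was higher and 1 lower (5.88% each), close to the 4.49% and 3.59% of all genes, and the median was -0.12, but 0.03 without m1, 0.04 without m6, -0.28 without m5 and 0.28 on centred mean log values. The higher one was Klf2, the shear stress factor, with 369, 279.6, 222 and 279.5 CPM on day 0 and 570.2, 493 and 374 CPM on day 1.5, just apart from the highest control, m1. Of 23 Wnt receptors and feedback genes 0 were higher and 1 lower (4.35%, against 3.59% over all genes), with a median of -0.31. This median was -0.07 without m4, -0.13 without m6, -0.17 without m7 and -0.19 without m3. It was -0.04 on centred mean log values and -0.02 in the animals sorted together. The lower one was the receptor gene Fzd4 with 193, 155, 165 and 94.01 CPM on day 0 and 57.2, 56.4 and 53.2 CPM on day 1.5. Of 18 haemostasis genes 2 were higher and 2 lower (11.1% each, against 4.49% and 3.59%), with a median of 0.10 that was 0.32 to 0.35 without m2, m4 or m6 in turn, and Plaur, the urokinase receptor, at 48.5, 99.3, 72.2 and 141 CPM on day 0 and 54.8, 15.95 and 32.4 CPM on day 1.5.

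**Figure D4:**
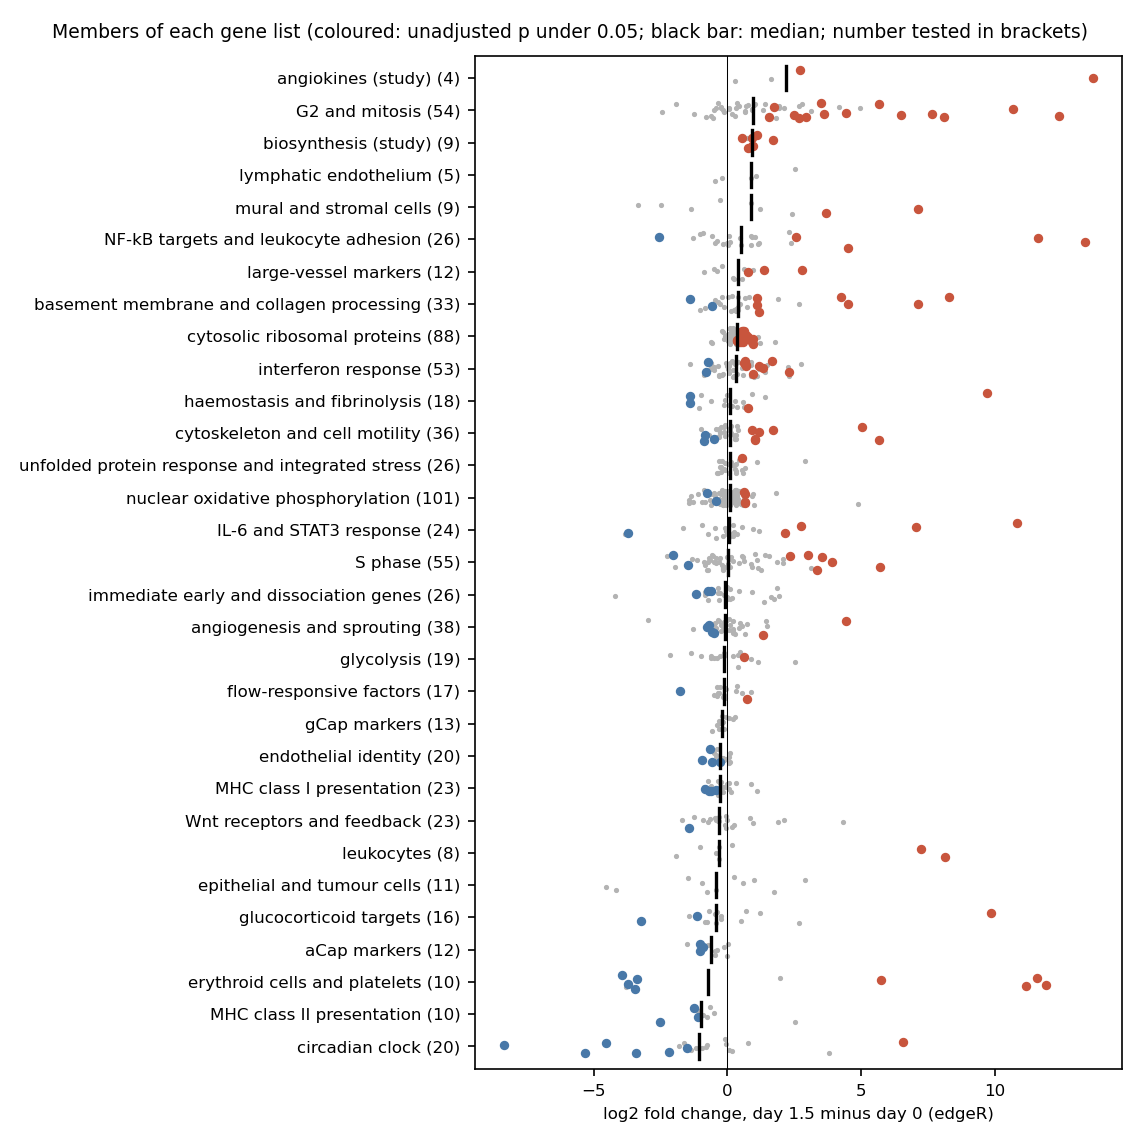
Log2 fold change (horizontal, edgeR, day 1.5 minus day 0) of every tested member of 31 gene lists, 1 point per gene; coloured points had an unadjusted p under 0.05 and black bars are list medians. Ribosomal protein genes sit in a narrow band above 0 (median 0.37), clock genes lie mostly below 0 (median -1.06), and the widest values belong to genes read in few cells.

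The split of the controls over 2 sort days allows the comparison to be repeated among animals sorted together, m1 and m2 against m5 to m7. No gene passed an adjusted p of 0.05 in edgeR (1338, or 7.69%, had an unadjusted p under 0.05), with the fewer animals that this leaves. The 24 widely read genes with the smallest p were all apart between the days with 4 controls, so that their direction could not turn with 2 of these controls, and only the size of the difference is read here. Col4a1 differed by 1.15 (unadjusted p = 0.00114) against 1.11 with all controls, Col4a2 by 1.39 against 1.18, and Txnip by -1.69 against -1.74. Sbno2 was smaller, at 1.17 against 1.58. For the haemoglobin gene Hba-a2 the difference was -1.58 within the sort day and -3.45 with m3 and m4 included, of which m4 carried 1499 CPM. Nr1d1 differed by -3.59 against -4.53, and Per2, a clock gene of the negative arm, by -2.72 against -3.40.

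**Figure D5:**
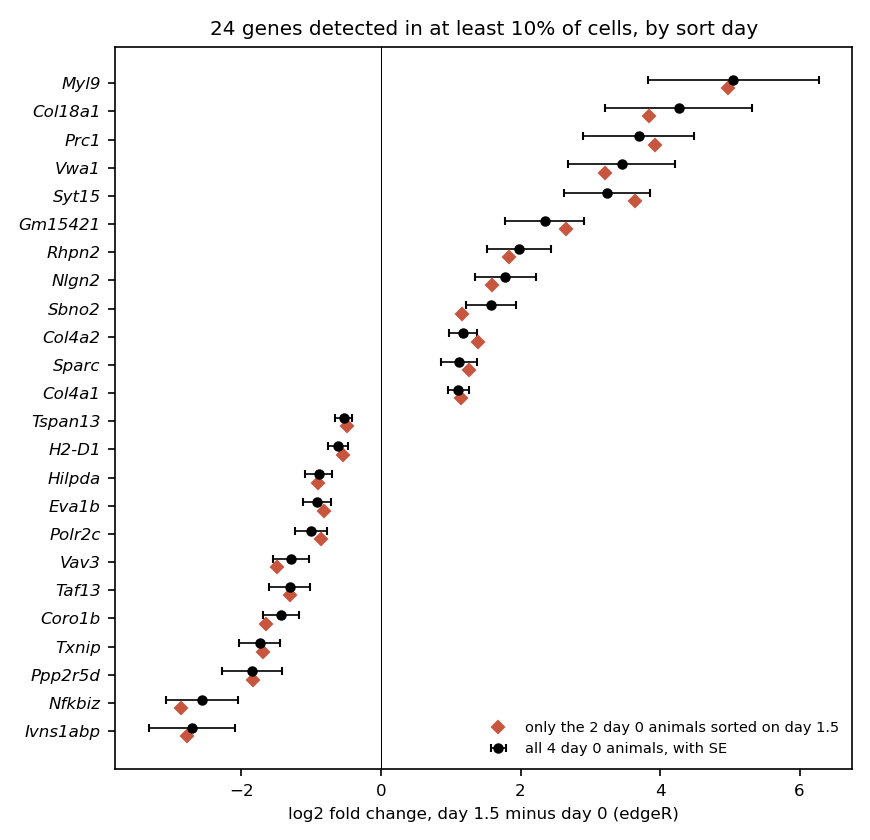
Log2 fold change (horizontal, edgeR, day 1.5 minus day 0) of the 24 widely read genes with the smallest p, with all 4 day 0 animals (black, bars are SE) and with only the 2 day 0 animals sorted together with the day 1.5 animals (diamonds). The side of 0 is fixed by the choice of genes, and what can be read is the size, with Sbno2 at 1.17 against 1.58 and Col4a1 at 1.15 against 1.11.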

How the data were processed

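Single ECs were sequenced with SMART-Seq2, and the authors quantified reads with Salmon 0.7.2 against GRCm38. The deposited lane tables hold estimated counts per gene and cell, and the deposited table of filtered cells holds log10 values scaled by the authors to housekeeping genes. Per the study's methods, cells with many mitochondrial reads, few genes, or immune or mural markers were removed. By the estimated counts, 7 to 8 kept cells per day 0 animal and 12 to 13 per day 1.5 animal still held over 5% mitochondrial reads. Each kept cell was matched to its lane column and animal. Estimated counts were summed per animal, rounded and tested with edgeR 4.0.16 (quasi-likelihood, filterByExpr, TMM, Benjamini-Hochberg adjustment at 0.05) over 10 EC animals, of which 3 were from day 3.5. CPM are TMM-scaled. A cell counted as having a read at an estimated count of at least 0.5. limma 3.58.1 (genes read in at least 5% of cells) and DESeq2 1.42.0 were alternatives, run with R 4.3.3. Animals are the replicates. The counting error of PCR reads without molecular identifiers is not covered. Doublets were excluded only by the sort gate.

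Named genes were those called by edgeR (none), the 12 higher and 12 lower of smallest p among genes read in at least 10% of cells of every animal of the higher day, the 2 smallest p of each of 31 lists, 5 angiokines, and the most abundant markers. Other members of lists that are named were chosen after their values were seen. Members and lists were chosen with earlier results of these data known, and lists are described by counts and medians, without a test. Of 90 named genes, 41 overlap another gene in the annotation, and reads were not assigned by strand. The edgeR, DESeq2 and limma fits were tested on simulated counts. Cell matching, thinning, shares of cells and centring were not part of that test.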

Additional observations from a re-analysis of the deposited data

Results flagged for a closer look

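Among 85 items tested, 8 had 1 of the 4 day 0 animals far from the other 3 by Dixon's gap test, and chance alone flags about 1 in 20. Groups of 3 animals, such as day 1.5, were not tested. Blood cell transcripts gave 3 of the 8. Hba-a2 stood at 1499 CPM in m4 against 88.9 to 250.97 CPM in the other controls, Hbb-bs at 932 CPM in m4 against 102 to 146 CPM, and the summed erythroid and platelet markers at 3002 CPM in m4 against 237 to 403 CPM. Col4a2 was low in m1, at 407 CPM against 676 to 712 CPM. Hilpda was 2251 CPM in m1 against 2218 to 2223 CPM, a gap that is large only beside controls that nearly coincide. Gm15421, a pseudogene, was 2.92 CPM in m2 against 7.51 to 8.38 CPM. Cd68, a macrophage marker, was 32.4 CPM in m2 against 1.49 to 4.70 CPM. Sftpa1, a surfactant gene of the epithelium, was 9.92 CPM in m1 against 0.119 to 1.08 CPM.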

How the results depend on the processing

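edgeR called 0 genes with all animals and the tool chosen for the comparison. DESeq2 called 353. On the mean log10 values limma called 275 uncentred and 134 centred, and on the share of cells 69, or 36 after thinning to 100000 reads and 44 after thinning and centring. Uncentred mean log values shift the median gene by 0.15 towards day 1.5 and give 268 higher and 7 lower calls, against 112 and 22 centred. With every cell at equal weight 2 genes were called, without the richest cell of each gene 2, without cells over 5% mitochondrial reads 1, and in a fit of only the 7 animals 1. Leaving out each animal gave 0 to 1 called genes, the 1 being Timp1 without m2. Genes at an unadjusted p under 0.05 numbered 2248 without a filter on low counts. Genes whose animals did not overlap numbered 2149 to 2590 with 1 animal left out and 4127 in the animals sorted together, where fewer animals make an overlap rarer by construction. The medians of the endothelial identity, gCap, angiogenesis, flow, glycolysis and immediate early lists were below 0 in summed reads and above 0 on centred mean log values (0.15, 0.19, 0.10, 0.28, 0.14 and 0.17). The list median was above 0 in 16 of 31 lists, and in 25 of the 30 lists with widely read members under uncentred mean log values and likewise in 25 under the share of cells. Median reads per cell turned from lower to higher on day 1.5 over all sorted cells (56985 more reads) and without m6 (11559 more), and ranged from -37400.5 to 11559 with 1 animal left out. Sort day as a term gives the estimate of the animals sorted together and called 0 genes.

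No paired analysis was possible because the days held different animals among m1 to m7, and the replicate numbers start anew on each day. Thinning and centring of shares and the term for sort day were added after seeing the data.

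Of 89 named genes with a test, 69 kept their direction in every setting. Many of the 89 were chosen for a small p in these same animals, so this count is largely set by the choice and is no support. The other named genes turned as follows, and the cause was not tested. On uncentred mean log values the log2 differences became 0.0664 for Coro1b, 0.0764 for Nfkbiz, 0.11 for Ppp2r5d, 0.35 for Ptprb, 0.37 for Plvap, 0.55 for Esam, 0.0138 for Flt4, 0.16 for Tk1, 0.0562 for Ndufv1, 0.10 for Cldn5, 0.88 for Lyve1, 0.23 for Ms4a1 and -0.12 for Sftpc. After centring they were 0.19 for Ptprb, 0.21 for Plvap, 0.39 for Esam, 0.0023 for Tk1, 0.72 for Lyve1, 0.0673 for Ms4a1 and -0.28 for Sftpc. On the share of cells (arcsine scale) they were 0.0206 for Coro1b, 0.0321 for Nfkbiz, 0.000579 for Taf13, 0.0140 for Ppp2r5d, 0.0377 for Ptprb, 0.0386 for Plvap, 0.0409 for Esam, 0.0274 for Flt4, 0.00999 for Jun, 0.0109 for Ndufv1, 0.0405 for Cldn5, 0.0898 for Lyve1, 0.00699 for Ms4a1 and -0.0747 for Sftpc. After thinning they were 0.000486 for Coro1b, 0.0238 for Nfkbiz, 0.0154 for Ppp2r5d, 0.0411 for Ptprb, 0.00661 for Plvap, 0.0289 for Esam, 0.00840 for Cldn5, 0.0790 for Lyve1, 0.00253 for Ms4a1 and -0.0856 for Sftpc. After thinning and centring they were 0.00326 for Nfkbiz, 0.0206 for Ptprb, 0.00833 for Esam, -0.00274 for Hyou1, 0.0585 for Lyve1 and -0.106 for Sftpc. With 1 animal left out the log2 differences ranged from -0.0471 (without m1) to 0.84 for Angpt2, -0.27 (without m5) to 2.70 for Slit3, -0.56 to 1.81e-05 (without m2) for Lyve1, -1.25 to 1.53 (without m2) for Cd68, -1.16 to 0.61 (without m4) for Rgs5 and -6.91 (without m6) to 1.73 for Sftpc. Rgs5 was 0.16 in the animals sorted together and with sort day as a term and 0.23 with every cell at equal weight, Sftpc -1.77 with every cell at equal weight, and Cd68 0.66 without its richest cells.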

Other observations

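Among the 44 genes called on the centred thinned share of cells, some were not described above and were picked after their values were seen. Adgrg1, an adhesion receptor, was read in 5.44% ± 1.19 of cells on day 0 and 18.5% ± 4.38 on day 1.5 (4.18% and 13.3% after thinning, limma adjusted p = 0.0118), with 21.05, 11.8, 2.42 and 1.22 CPM on day 0 and 72.1, 48.3 and 92.3 CPM on day 1.5 and no overlap. Ankrd37, a hypoxia-inducible gene, had 76.5, 65.7, 48.96 and 62.6 CPM on day 0 and 124, 131 and 148 CPM on day 1.5, and its share after thinning was 6.12% and 16.1% (limma adjusted p = 0.0209). Its direction was opposite to that of Hilpda, also known as a hypoxia target, which was lower in every day 1.5 animal. Upp1, an enzyme of uridine salvage in the study's biosynthesis panel, was read in 22.7% ± 5.58 of cells on day 0 and 41.6% ± 6.17 on day 1.5, while its summed reads, 109, 204, 260.3 and 81.6 CPM on day 0 and 279, 234 and 303 CPM on day 1.5, overlapped, and since the panel was chosen on these cells these values are a description only. Plat, the haemostasis gene of tissue plasminogen activator, was read in 3.43% and 9.82% of thinned cells (limma adjusted p = 0.0457), while its summed reads differed by 0.00 ± 0.73 on the log2 scale. Plac8, a large-vessel marker, had 124, 72.1, 158 and 34.9 CPM on day 0 and 417, 143 and 193 CPM on day 1.5 and shares of 3.83% and 17.3% after thinning (limma adjusted p = 0.00132).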
